A study of Solanum lycopersicum with 6 samples.

Results

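miR162 and miR168 are the miRNA families that act on the miRNA pathway itself. Plant miRNAs are cut from hairpin precursors by the nuclease DICER-LIKE1 (DCL1) and act after loading into the effector ARGONAUTE1 (AGO1). miR162 guides cleavage of the *DCL1* transcript and miR168 that of the *AGO1* transcript, as shown in Arabidopsis, so that each miRNA can restrain the machinery that makes or uses it. Each hairpin yields a duplex with a 5p and a 3p arm, of which one is called the mature strand and the other the star strand. In the classical annotation, the strand of miR162 that targets *DCL1* comes from the 3p arm and that of miR168 that targets *AGO1* from the 5p arm.

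Every listed row whose name before the first hyphen is miR162 or miR168, with or without a letter, was taken. This gave 46 of the 826 rows over 6 lists, of which 24 are miR162 rows and 22 are miR168 rows. They stand for 23 of the 413 listed loci, with 1 row per arm, and all 46 carry the evidence word Known. The lists hold designations and values only.

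Small RNA was sequenced from distal pedicel segments of tomato 'Micro-Tom' fruits 10 days after anthesis, in 3 *hws-1* and 3 WT samples of 5 bulked segments each. *hws-1* is a weak allele, induced by ethyl methanesulfonate and backcrossed, of *HAWAIIAN SKIRT*, which encodes an F-box protein linked to miRNA accumulation, and it is the only mutant allele among these samples. Values are reads per 1000000 reads of the library, called TPM in the study. In bulked pedicels, fewer cells of a type and less RNA per cell cannot be told apart. The transcripts of *DCL1*, *AGO1* or tissue markers were not measured in these libraries.

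By the value of 1 read, the 3 *hws-1* lists are scaled to between 114212 and 180179 reads and the 3 WT lists to between 257797 and 313526 reads. Every *hws-1* library is therefore shallower than every WT library, and depth and line cannot be told apart. *hws-1* replicate 1 stands apart for these families, since it lists 1 miR168 locus where every other library lists 2. Results that rest on it are given with and without it where both were computed.

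miR162 was the more abundant family and was listed with 2 loci in each library. The sum of its rows was 9076, 9148 and 7044 TPM in *hws-1* replicates 1, 2 and 3, and 7877, 5009 and 6987 TPM in WT replicates 1, 2 and 3. It took 7th place among the 21 families listed in all 6 libraries, and held this place in each of them. The family above it by mean level, miR319, which targets TCP transcription factors, had at least 9273 TPM, more than the highest miR162 library. The family below it, miR168, had at most 4117 TPM, less than the lowest miR162 library. Together, miR162 and miR168 held 7.19%, 5.75% and 5.55% of the listed TPM in *hws-1* replicates 1, 2 and 3, and 6.70%, 6.33% and 6.77% in WT.

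Nearly all of miR162 came from the 3p arm. Summed over both loci, miR162-3p had 9026, 9040 and 6921 TPM in *hws-1* and 7755, 4888 and 6858 TPM in WT. The lines overlapped, because *hws-1* replicate 3 lies below WT replicate 1. The mean was 8329 ± 1219 TPM (SD, n = 3) in *hws-1* and 6501 ± 1467 TPM (SD, n = 3) in WT, a ratio of 1.28. The log2 fold change on the log2(TPM + 1) scale was 0.37 (95% interval -0.36 to 1.11), with an adjusted p of 0.52 from limma over 42 family sums by arm. Leaving out WT replicate 2, the lowest library, lowered the log2 fold change to 0.18.

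The miR162-5p arm, listed as the star strand at every locus, was rare. It had 49.95, 108.1 and 122.6 TPM in *hws-1*, against 121.2, 120.2 and 128.6 TPM in WT. The WT libraries lay close together, whereas *hws-1* replicate 1 was far below the others. These values are 9, 17 and 14 reads in *hws-1* and 38, 31 and 36 reads in WT. For *hws-1* replicate 1, the exact (Clopper-Pearson) 95% interval of 22.8 to 94.8 TPM overlaps that of WT replicate 1, 85.8 to 166.4 TPM. Such intervals cover counting error only. The log2 fold change was -0.49 (95% interval -1.38 to 0.39, adjusted p = 0.49 from limma), and it was -0.10 without *hws-1* replicate 1.

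**Figure D1:**
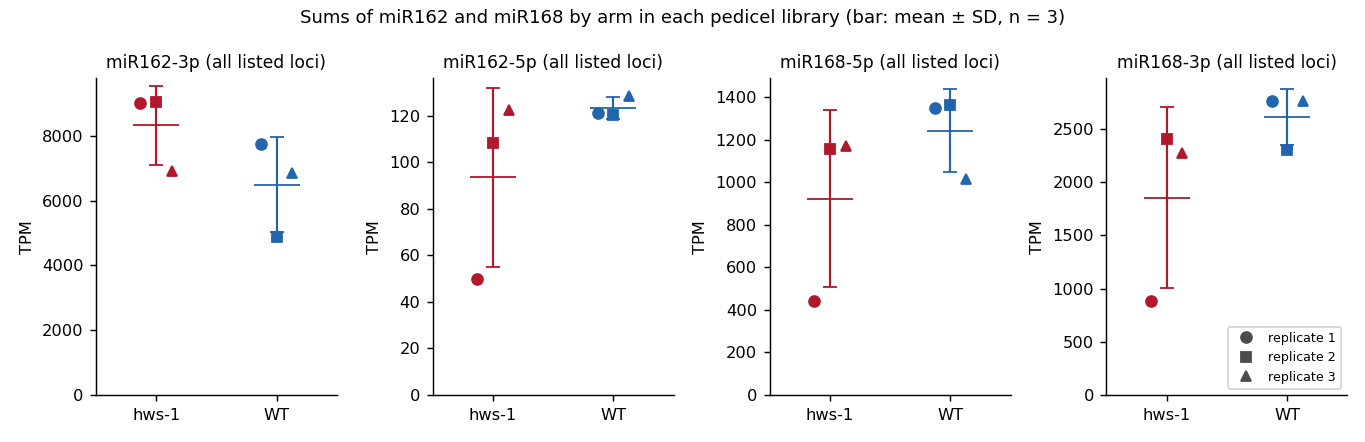
Each panel plots, in TPM, the sum over the listed loci of 1 arm of miR162 or miR168 in the 3 *hws-1* libraries (left) and the 3 WT libraries (right), with symbols for the replicate numbers and bars for mean ± SD. The lines overlap in every panel. *hws-1* replicate 1 is the lowest library for miR162-5p (49.95 TPM), miR168-5p (441.2 TPM) and miR168-3p (879.7 TPM), but not for miR162-3p (9026 TPM). For miR168, that library holds 1 locus, against 2 in every other library, and its miR162-5p value is 9 reads.

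The balance of the miR162 arms varied more than the level of the 3p arm. The ratio of 3p to 5p was 180.7, 83.6 and 56.5 in *hws-1* replicates 1, 2 and 3, and 64.0, 40.7 and 53.3 in WT. The star strand accordingly made up 0.55%, 1.18% and 1.74% of the family in *hws-1* and 1.54%, 2.40% and 1.84% in WT. The difference of -0.77 percentage points did not separate the lines (two-sided exact permutation test, p = 0.20, where 3 against 3 libraries cannot give p below 0.10), and it was -0.47 without *hws-1* replicate 1. Within pairs of the same replicate number, the star share was lower in *hws-1* in 3 of 3 pairs (exact sign-flip permutation test of the pairs, p = 0.25, the smallest that 3 pairs allow). The labels state no shared origin for such pairs. miR162-5p was likewise lower and miR162-3p higher in *hws-1* in 3 of 3 pairs, and 16 of the 42 family sums by arm (38.1%) went 1 way in all 3 pairs.

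The 2 miR162 loci cannot be told apart by their levels. Their 3p rows held identical values in 6 of 6 libraries, 4513, 4520 and 3461 TPM in *hws-1* and 3878, 2444 and 3429 TPM in WT. None of the 12 miR162-3p rows was a whole number of reads, within 0.01 read. The 5p rows were equal in 5 of 6 libraries. In WT replicate 2, miR162a-5p had 62.1 TPM and miR162b-5p 58.2 TPM, a difference of 1 read. In each list miR162a is followed by a miR482 locus and stands at 27.3% to 32.9% of the list, and miR162b stands at 58.1% to 61.6%.

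miR168 was the family next below miR162. The sum of its rows was 1321, 3568 and 3447 TPM in *hws-1* and 4117, 3671 and 3778 TPM in WT. Its place among the 21 families was 12th, 9th and 8th in *hws-1* replicates 1, 2 and 3, and 8th in each WT library. The family with the next lower mean, miR6027, a family described in Solanaceae, had 2189, 3506 and 2706 TPM in *hws-1* and 2134, 2291 and 2807 TPM in WT. The levels of both families overlap across the 6 libraries, although miR168 was above miR6027 in 5 of them and below it in *hws-1* replicate 1. The miR168 sum and place of that library rest on 1 listed locus, against 2 in every other library.

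Both arms of miR168 were well represented, and the 3p arm was the higher one. miR168-3p summed to 879.7, 2410 and 2276 TPM in *hws-1* and 2769, 2308 and 2762 TPM in WT. The lines overlapped, since *hws-1* replicate 2 was above WT replicate 2. miR168-5p summed to 441.2, 1158 and 1170 TPM in *hws-1* and 1348, 1363 and 1016 TPM in WT. Here *hws-1* replicates 2 and 3 were above WT replicate 3.

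The 3p row exceeded the 5p row at 11 of 11 listed miR168 loci, by a ratio of 1.64 to 3.01. The strand words do not follow this order. The 5p arm was called mature at 4 of the 11 loci and the 3p arm at 7. In WT replicate 1, for example, miR168a-5p was the mature strand with 672.5 TPM and miR168a-3p the star strand with 1293 TPM, and at miR168b of the same library the words were reversed. As a consequence, the share of the family on rows called star was 33.4%, 32.4% and 46.4% in *hws-1* and 47.8%, 62.9% and 26.9% in WT, which follows the words and not the arms (two-sided exact permutation test, p = 0.60). By arm, the 5p share was 33.4%, 32.4% and 34.0% in *hws-1* and 32.7%, 37.1% and 26.9% in WT. The mean 5p share was 33.3% ± 0.77 (SD, n = 3) in *hws-1* and 32.3% ± 5.1 (SD, n = 3) in WT, with no separation of the lines (two-sided exact permutation test, p = 0.80). The arm balance of *hws-1* replicate 1 was therefore close to that of the other *hws-1* libraries.

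The miR168 sums of *hws-1* replicate 1 hold fewer rows than those of the other libraries. All 6 libraries list a miR168 locus directly before a miR166 locus and after miR9470 or miR10537. Among the miRNA genes that RefSeq places on assembly SLM_r2.1, consulted here for names and neighbours, *MIR9470* and *MIR10537* directly precede *MIR168a*. The gene that follows *MIR168a* there is *MIR10535b*, not a miR166 gene as in the lists. A further miR168 locus stands last or next to last, after a miR319 locus, in 5 of 6 lists. The only miR168 locus of *hws-1* replicate 1 stands at the first of these places, so the locus near the end of the list is the one it does not name. RefSeq holds 2 genes named MIR168 and none named MIR162 among its 101 placed miRNA genes. Of these, *MIR168b* lies between *MIR10542* and *MIR827*, which are not the list neighbours of the miR168 locus near the end. Which gene stands at which place was not tested.

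At the place that all libraries share, miR168-3p had 879.7, 1167 and 1261 TPM in *hws-1* and 1293, 1189 and 1524 TPM in WT. *hws-1* replicate 3 exceeded WT replicate 2, so the lines overlapped. miR168-5p had 441.2, 578.8 and 585.2 TPM in *hws-1* there, against 672.5, 679.5 and 506.1 TPM in WT. *hws-1* replicate 1 was the lowest library for both arms, but by much less than in the sums. At the place near the end, miR168-3p had 1243 and 1016 TPM in *hws-1* replicates 2 and 3, and 1475, 1119 and 1238 TPM in WT.

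**Figure D2:**
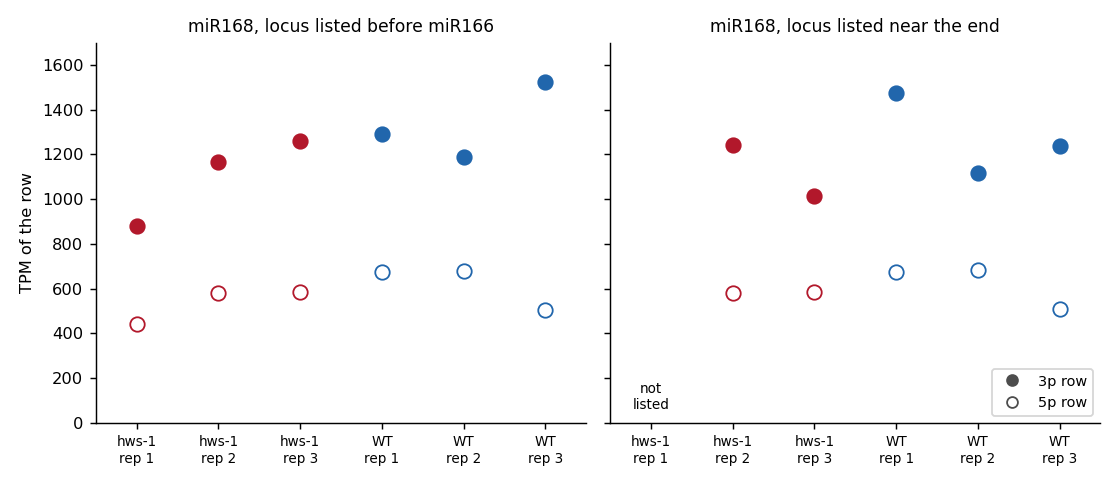
The TPM of the 3p row (filled) and the 5p row (open) of miR168 is plotted for each library, at the locus listed before a miR166 locus (left panel) and at the locus listed near the end (right panel), with *hws-1* libraries in red and WT libraries in blue. The 3p row is above the 5p row wherever miR168 is listed, and *hws-1* replicate 1 has no row in the right panel.

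The 5p rows of both miR168 loci were nearly the same in the 5 libraries that list them, with a difference of at most 0.706%. The 3p rows were never equal and differed by up to 24.1%. Of the 11 miR168-3p rows, 9 lay 0.5 read above a whole number, within 0.01 read. In *hws-1* replicate 1, the listed rows correspond to 79.5 reads for 5p and 158.5 reads for 3p. How the pipeline arrives at fractions of a read was not tested.

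No miR168 row could be compared by designation, because none is listed in all 6 libraries. The name is miR168 in *hws-1* replicate 1 and miR168a or miR168b elsewhere, and the strand words change. Of the 58 designations tested, 4 passed (6.9%), of which 0 were among the 4 miR162 rows. Sums over a family and arm do not use letters or strand words. In the limma test over 42 such sums, 3 passed (7.14%), and 6 in the fit with a replicate block. Among the 4 sums of miR162 and miR168, 0 passed, and 0 had an unadjusted p under 0.05, with or without the block, against 8 of all 42 (19%) without it and 9 (21.4%) with it. The lines did not overlap for 10 of the 42 sums (23.8%) and for 0 of these 4.

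For miR168-3p the mean was 1856 ± 848 TPM (SD, n = 3) in *hws-1* and 2613 ± 264 TPM (SD, n = 3) in WT, a log2 fold change of -0.62 (95% interval -1.59 to 0.35, adjusted p = 0.48 from limma). For miR168-5p it was 923 ± 417 TPM (SD, n = 3) in *hws-1* and 1242 ± 196 TPM (SD, n = 3) in WT, a log2 fold change of -0.55 (95% interval -1.52 to 0.43, adjusted p = 0.49 from limma). Both values rest largely on *hws-1* replicate 1. Without it, they were -0.15 for miR168-3p and -0.08 for miR168-5p. At the locus that all libraries list, the log2 fold changes were -0.29 for miR168-3p (95% interval -0.95 to 0.38, adjusted p = 0.60 from limma) and -0.21 for miR168-5p (95% interval -0.88 to 0.46, adjusted p = 0.70 from limma). With the mean per listed locus in place of the sum they were -0.29 and -0.21 as well. All of these intervals include 0. Their upper ends are increases, and their lower ends are decreases larger than the values measured.

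Relative to all families, miR162-3p stood above the middle and the other 3 sums below it. The median log2 fold change over the 42 sums was 0.06. miR168-3p was the 4th lowest of the 42, miR168-5p the 6th and miR162-5p the 7th, while miR162-3p was the 27th. These miR168 sums hold 1 locus in *hws-1* replicate 1, against 2 in every other library. With means per listed locus, miR168-3p was the 8th lowest, miR168-5p the 12th, miR162-5p the 5th and miR162-3p the 26th. Centring each library on its median moved the median over all sums to -0.41. It turned the direction of miR162-3p (log2 fold change -0.10, adjusted p = 0.81 from limma). Under it miR168-3p (-1.10, adjusted p = 0.041) and miR162-5p (-0.97, adjusted p = 0.041) passed the limma threshold, and are 2 of the 3 sums (7.14%) called lower there. By designation, 6 of 58 (10.3%) passed with centring, of which 2 were miR162 rows, miR162a-5p and miR162b-5p. Centring shifts every log2 fold change by the same amount, so differences from the median of all sums cannot change with it. These differences were 0.31 for miR162-3p, -0.56 for miR162-5p, -0.61 for miR168-5p and -0.68 for miR168-3p. For means per listed locus they were 0.20, -0.66, -0.39 and -0.46 in the same order.

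**Figure D3:**
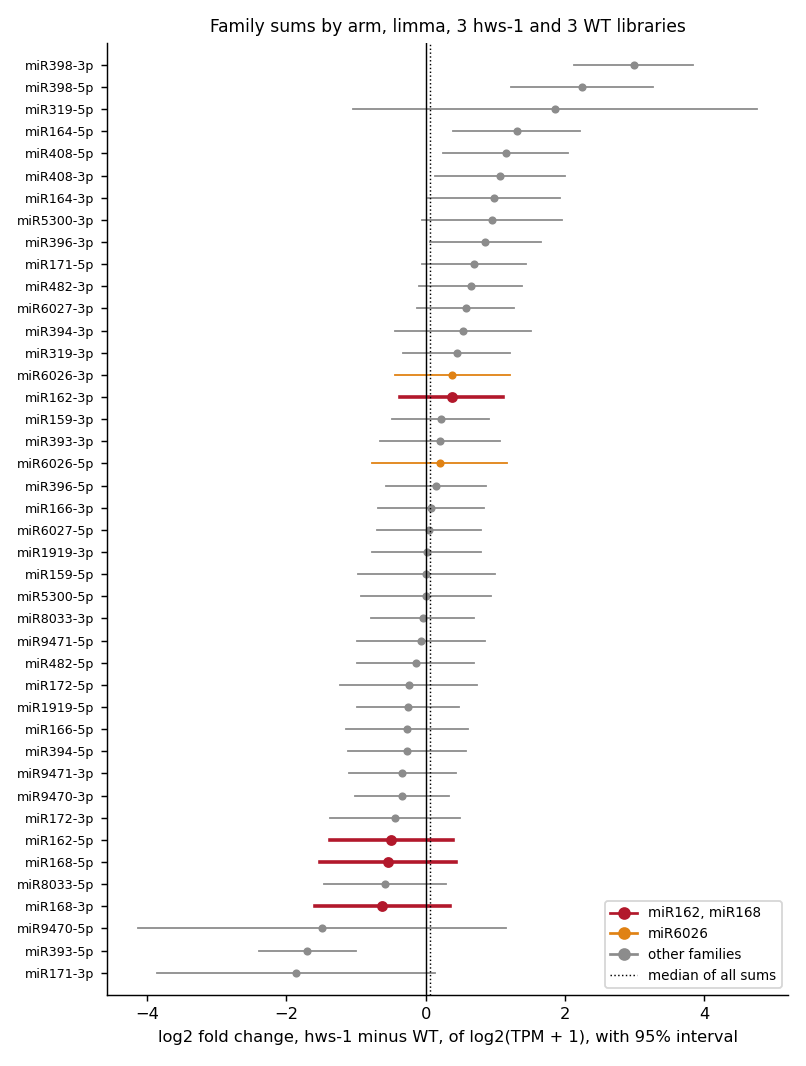
The log2 fold change (*hws-1* minus WT, on the log2(TPM + 1) scale) of each of the 42 family sums by arm is plotted with its 95% interval from limma, with miR162 and miR168 in red, miR6026 in orange and the median of all sums (0.06) as a dotted line. The intervals of miR162-3p, miR162-5p, miR168-5p and miR168-3p all include 0.

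A ratio within a library does not depend on how the library is scaled. The ratio of miR168-5p to miR162-3p, the strands that target *AGO1* and *DCL1*, was 0.0489, 0.128 and 0.169 in *hws-1* and 0.174, 0.279 and 0.148 in WT. The difference of -0.92 on the log2 scale did not separate the lines (two-sided exact permutation test, p = 0.20), and it was -0.59 with the mean over listed loci and -0.39 without *hws-1* replicate 1. The ratio of miR168-3p to miR162-3p, computed after its values were seen, was 0.0975, 0.267 and 0.329 in *hws-1* and 0.357, 0.472 and 0.403 in WT. Each *hws-1* library was below each WT library, the closest being *hws-1* replicate 3 (0.329) and WT replicate 1 (0.357). The line means differed by -0.996 on the log2 scale for the sums and by -0.66 for the mean per listed locus (two-sided exact permutation test, p = 0.10 each, the smallest that 3 against 3 libraries allow). At the locus that all libraries list, *hws-1* replicate 3 (0.364) exceeded WT replicate 1 (0.334), and p was 0.20 in the same test. None of these differences for miR168-3p was computed without *hws-1* replicate 1, the lowest library (0.0975 for the sums). The share of other such ratios that separate the lines was not counted.

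**Figure D4:**
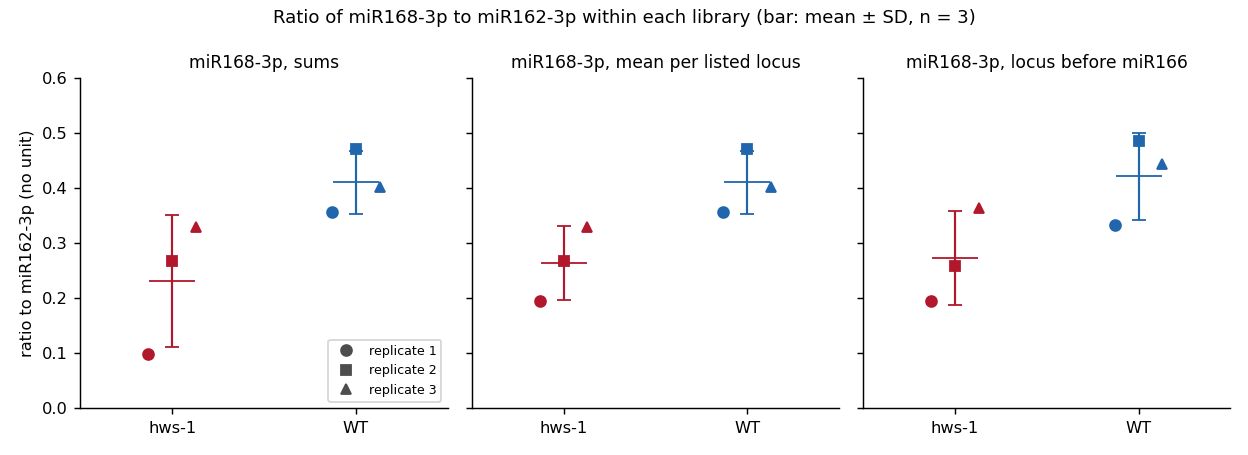
The ratio of miR168-3p to miR162-3p within each library is plotted for sums over listed loci, for the mean per listed locus and for the miR168 locus listed before miR166, with *hws-1* left of WT, symbols for the replicate numbers and bars for mean ± SD. The lines are apart in the first and the middle panel, where the highest *hws-1* library has 0.329 and the lowest WT library 0.357, and overlap in the last. This ratio was computed after its values were seen.

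Likeness over the 6 libraries is given as a description, since all sums of a library share its depth and scaling. Among 33 other sums with a mean of at least 100 TPM, the profile of miR162-3p was most like that of miR408-3p (Pearson r = 0.82), miR398-3p (r = 0.71) and miR319-3p (r = 0.59) on the log2 scale. That of miR168-5p was most like miR162-5p (r = 0.95), miR168-3p (r = 0.94) and miR482-5p (r = 0.91), all of which are low in *hws-1* replicate 1. The miR168 sums of that library hold 1 locus, against 2 in every other library. No r was computed without that library or per locus, so these values do not show likeness among the other libraries. Between miR162-3p and miR168-5p themselves, r was -0.53.

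Other miRNAs tied to the silencing machinery were sparsely listed. The list comprised miR403, which targets *AGO2*, miR390, which works with AGO7, miR6026 and miR1515, which target *DCL2* in tomato and soybean, and miR838, which arises from the *DCL1* transcript in Arabidopsis. miR390, miR1515 and miR838 were named in none of the 6 lists. miR403 appeared in 2 of 3 *hws-1* lists and in 2 of 3 WT lists, with miR403-3p at 909.5 and 691.7 TPM in *hws-1* replicates 2 and 3, and 657.0 and 646.7 TPM in WT replicates 1 and 3. *hws-1* replicate 1, which lacks a miR168 locus, and WT replicate 2 do not list it. miR6026-3p had 552.2, 1248 and 890.5 TPM in *hws-1* and 689.8, 593.5 and 672.9 TPM in WT, with overlap between the lines. Its log2 fold change was 0.38 (95% interval -0.45 to 1.22, adjusted p = 0.54 from limma), and that of miR6026-5p was 0.20 (adjusted p = 0.82 from limma). Of the 2 sums of this list that could be tested, 0 passed, against 7.14% of all sums, and their median log2 fold change was 0.29, against 0.06 over all sums.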

How the data were processed

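Total RNA of bulked distal pedicel segments was made into small RNA libraries, 3 of *hws-1* and 3 of WT. The authors ran sRNAminer (One Step pipeline, default settings) on each library and deposited 1 list per library with RPM values, called TPM in the study. The pipeline version and genome build are not given in the sources used here. The value of 1 read (3.19 to 8.76 TPM) was found from whole multiples among families with 1 locus. Between 32.3% and 38.0% of values above 0 were whole multiples, so no count model was fitted.

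Samples were grouped by genotype label. Rows were summed by family and arm for the 21 families listed in all libraries, and also joined by full designation. limma 3.58.1 in R 4.3.3 was fitted to log2(TPM + 1), the model held line alone, and p-values were adjusted by Benjamini-Hochberg (threshold 0.05). Ratios and shares were compared by exact permutation tests. Python 3.11.15, pandas 2.3.3, numpy 2.4.6, scipy 1.17.1 and matplotlib 3.10.9 were used. The limma fit was tested on simulated data. Nothing in the labels states separate plants per replicate, so p-values measure the spread between these samples. Deviations of same-numbered samples were weakly correlated (0.16, 0.22 and 0.23 over 58 designations). This pairs them by a rule on these correlations, not by a shared origin stated in the labels. Other pairs ranged from -0.33 to 0.14. The alternatives were other pseudocounts (0.1 and 10), a mean of at least 10 TPM, rescaling, median centring, a replicate block, an intensity trend, absent values set to 0, joining by name and arm, and leaving out each library. The named miRNAs are all miR162 and miR168 rows, the silencing list, the neighbours by level and the 3 most alike sums. The members and lists were chosen with earlier results of these data known.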

Additional observations from a re-analysis of the deposited data

How the results depend on the processing

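The miR162-3p total was higher in *hws-1* in all settings but those centred on the library median, with -0.10 for sums and -0.35 for means per listed locus. Across single left-out libraries its log2 fold change ranged from 0.18 to 0.51, that of miR162-5p from -0.74 to -0.10, that of miR168-5p from -0.78 to -0.08, and that of miR168-3p from -0.88 to -0.15, with none past the limma threshold. Centring made miR162-5p (-0.97) and miR168-3p (-1.10) pass for sums, and miR162-5p (-1.21), miR168-5p (-0.94) and miR168-3p (-1.01) for means per listed locus, a setting chosen after seeing the data in which 12 of 42 sums passed. The adjusted p from limma ranged from 0.031 to 0.87 for miR168-5p and from 0.018 to 0.87 for miR168-3p over all settings. Centring shifts the log2 fold change of every sum by the same amount. It moved the median of all sums away from 0, from 0.06 to -0.41, and from 0.17 to -0.55 for means per listed locus. Calls under centring include this shift, and a further cause was not tested. With the replicate block, 8 designations and 6 family sums passed, none of them miR162 or miR168, and it changed no call of either family. The number of designations passed was also 8 with a pseudocount of 10 and with rows under a mean of 10 TPM removed, and 3 to 8 without single libraries. With centring, 6 of 58 designations passed, among them 2 of the 4 miR162 rows, both 5p. The number of family sums passed was 5 with centring and 2 to 5 without single libraries. The star share of miR168 ranged from -17.9 to 0.069 percentage points (*hws-1* minus WT) without single libraries, lowest without WT replicate 3 and turning round without WT replicate 2, and was 1.01 as a 5p share. The ratio of miR168-5p to miR162-3p ranged from -1.29 to -0.39 on the log2 scale and the miR162 star share from -1.06 to -0.47 percentage points. Depth limits miR162-5p most, with 9 to 38 reads a library.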
